A study of Mus musculus with 14 samples.

Results

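RNA was sequenced from mouse tumours grown from 4T1, an established mammary carcinoma line that serves as a model of triple-negative breast cancer. The lower of 2 cyclophosphamide doses was set apart from both the saline vehicle and the higher dose. The members are the 5 libraries labelled CTX100 out of 14, and the test ran across the 15360 of 54532 genes in the count table that passed a filter on low counts. For each gene, the contrast took the CTX100 level minus the midpoint, on the log2 scale, of the PBS and CTX140 levels, so a gene that peaks or dips at the lower dose lies away from 0. PBS (4 libraries) stands for mice given the saline vehicle, CTX100 (5) for cyclophosphamide at 100 mg/kg and CTX140 (5) for cyclophosphamide at 140 mg/kg, given into the peritoneum. All 3 groups carried tumours from 1000000 4T1 cells placed under the skin at the mammary gland, were first injected on day 9 at a tumour volume near 100 mm3 and then every 6 days, and gave tumours on day 3 after the third of 3 cycles. The labels give neither the strain nor the age of the mice, and do not tie each library to its own mouse, and the p-values reflect only how far these libraries vary, which may be technical.

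Cyclophosphamide is a prodrug that the liver activates to a mustard, which crosslinks DNA strands and blocks replication in dividing cells. It kills lymphocytes and dividing tumour cells at high doses, while lower, repeated doses have been studied for their effects on immune cells. Genes of mitosis are transcribed together late in the cell cycle, from promoters that often hold a CHR element (TTTGAA) and CCAAT boxes, and genes of DNA synthesis earlier, from promoters that often hold sites for E2F factors.

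Library totals ran from 14423875 to 19282726 counts. On the first principal component, which held 37.8% of the variance, the CTX100 mean (-9.38) lay between the PBS (-40.9) and CTX140 (42.1) means. Mitochondrially encoded transcripts took 4.53 ± 1.52% of counts in CTX100 (SD, n = 5), against 4.72 ± 1.02% in PBS (n = 4) and 6.02 ± 2.23% in CTX140 (n = 5). The CTX100 mean differed from the midpoint by -0.84 percentage points, within the spread between libraries (two-sided exact permutation p = 0.436 over 252252 assignments). In bulk tumour RNA, fewer cells of a type and less RNA per cell cannot be told apart.

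No gene passed the contrast after adjustment, while 26 of the 30 tested genes of the mitosis list were higher at 100 mg/kg at an unadjusted p under 0.05. edgeR called 0 of 15360 genes (0% called; smallest adjusted p = 0.126), and 1395 had an unadjusted p under 0.05 (9.08% of genes tested), 756 higher (4.92% of genes tested) and 639 lower (4.16%). DESeq2 called 51 genes, 41 higher and 10 lower (0.332% of genes tested), and limma on log2(FPKM + 1) called 0. Among the 756 with the higher levels, 673 had a fitted CTX100 level above both other groups and 83 lay between them, and among the 639, 610 lay below both and 29 between. The median difference was 0.36 in the 756 and -0.52 in the 639, beside -0.01 over all genes tested.

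A stricter question is whether CTX100 was past both groups on the same side, taking the larger of the 2 pairwise p-values for each gene. By that test edgeR called 0 genes (smallest adjusted p = 1), with 228 at an unadjusted p under 0.05 (1.48%), 144 of them higher (0.938%) and 84 lower (0.547%), and DESeq2 called 0 (smallest adjusted p = 0.133). Over all genes tested the fitted CTX100 level lay between the other groups in 52.9%, above both in 21.0% and below both in 26.1%. Every CTX100 library was above all 9 others in 44 genes (0.286%) and below all 9 in 10 genes (0.0651%). Of those 44 genes, 5 belong to the mitosis list, 2 to the DNA replication list and 1 to the list of crosslink and recombination repair.

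**Figure D1:**
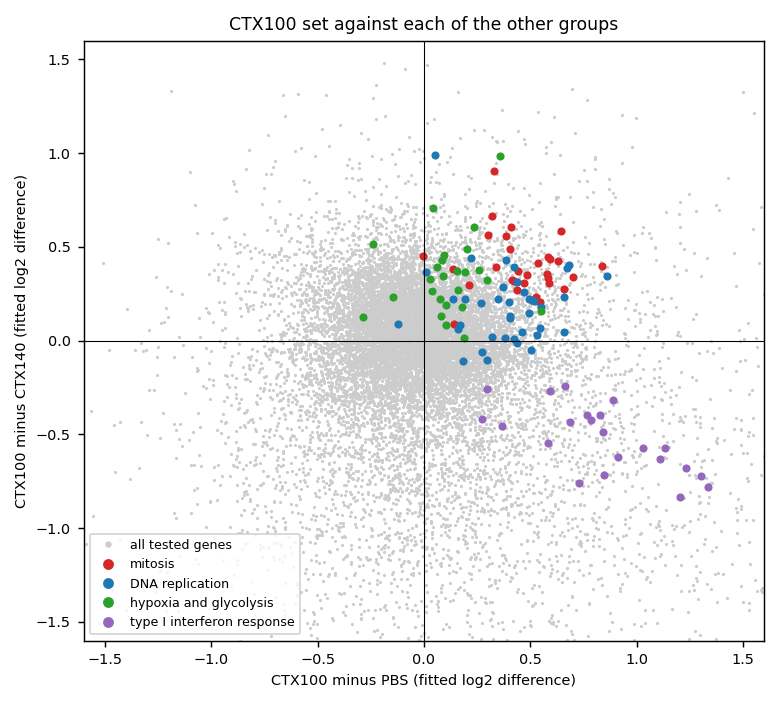
Each point is a gene, with its fitted CTX100 minus PBS difference across and its fitted CTX100 minus CTX140 difference upward, both in log2 units, so genes highest at 100 mg/kg lie in the upper right; the 564 genes beyond 1.6 on either axis are not drawn. Of the mitosis list (red) 29 of 30 members lie in the upper right, while 22 of the 25 type I interferon members fall in the range drawn and lie at the lower right, between the other groups; both axes use the same CTX100 libraries.

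Taken singly, 4 genes passed each of the pairwise comparisons at an edgeR adjusted p under 0.05 on the same side: Bub1b, Uhrf1 and Ociad2 above and Itga8 below. The 2 comparisons were adjusted separately, and edgeR called none of the 4 in the test of being past both groups. None passed the contrast either, with an edgeR adjusted p of 0.126 for Bub1b and Ociad2 and of 0.133 for Uhrf1 and Itga8. The rule also took all 4 for a low p in these same libraries, so their order of groups follows from that choice. Against PBS edgeR called 1.20% of genes tested higher and 0.397% lower, and against CTX140 0.475% higher and 0.775% lower. Bub1b encodes the spindle checkpoint kinase BubR1 (ENSMUSG00000040084, chromosome 2, 118598211 to 118641591, mm10). It was at 64.7, 58.9, 44.7 and 52.2 CPM, that is counts per 1000000 of the scaled library, in PBS 1 to 4, at 89.1, 82.1, 99.5, 84.0 and 75.5 CPM in CTX100 1 to 5, and at 45.4, 58.6, 63.1, 55.3 and 64.1 CPM in CTX140 1 to 5. The lowest CTX100 library lay above the highest of the others, and PBS and CTX140 overlapped. Bub1b rose by 0.64 ± 0.13 (log2, SE) against PBS (edgeR adjusted p = 0.0268) and by 0.59 ± 0.12 against CTX140 (edgeR adjusted p = 0.0358). Its contrast difference was 0.61 ± 0.11 (edgeR adjusted p = 0.126).

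Uhrf1 encodes a protein that binds hemimethylated DNA and brings the maintenance methyltransferase to newly copied DNA (ENSMUSG00000001228, chromosome 17, 56303321 to 56323486). Its values were 94.9, 96.6, 75.0 and 87.4 CPM in PBS, 104, 126, 142, 122 and 118 CPM in CTX100, and 75.0, 81.8, 96.4, 82.0 and 81.8 CPM in CTX140. All 5 CTX100 libraries were above the other 9. The gene rose by 0.47 ± 0.11 against PBS (edgeR adjusted p = 0.0490) and by 0.55 ± 0.11 against CTX140 (0.0284).

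Ociad2 encodes an OCIA domain protein (ENSMUSG00000029153, chromosome 5, 73322199 to 73341028). It was at 15.8, 18.7, 15.6 and 17.7 CPM in PBS, at 21.5, 25.0, 25.5, 26.3 and 25.6 CPM in CTX100, and at 13.3, 15.4, 17.8, 16.4 and 17.0 CPM in CTX140. CTX100 1, at 21.5 CPM, was the lowest of its group and still above the 9 others. Ociad2 rose by 0.55 ± 0.12 against PBS (edgeR adjusted p = 0.0358) and by 0.63 ± 0.11 against CTX140 (0.0260).

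Itga8 encodes integrin alpha-8, a receptor of mesenchymal cells for matrix proteins (ENSMUSG00000026768, chromosome 2, 12106632 to 12301922). It had few counts: 2.35, 2.19, 3.84 and 2.25 CPM in PBS, 0.845, 0.478, 0.952, 0.584 and 0.619 CPM in CTX100, and 2.52, 2.20, 1.72, 0.956 and 1.93 CPM in CTX140. The CTX100 libraries lay below the others, the gap from CTX100 3 (0.952) to CTX140 4 (0.956) being very small. Itga8 fell by 1.91 ± 0.34 against PBS (edgeR adjusted p = 0.0172) and by 1.41 ± 0.33 against CTX140 (0.0449). It overlaps E030013I19Rik on the opposite strand and Gm37701 on its own strand. Reads of these genes cannot be told apart here. Whether the counting used strand is not given in the sources used here, and strand would not part Itga8 from Gm37701.

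The calls of these 4 genes past both comparisons were sensitive to leaving out single libraries, in each of the groups. Of 19 pairwise calls among the genes that the rule took, 1 (Reg3g against PBS) was kept in each of the 14 fits that left out a library and the others in 2 to 13. Leaving out PBS 3, PBS 4, CTX100 1, CTX100 2, CTX100 3, CTX100 4, CTX140 2 or CTX140 3 left 0 genes past both comparisons, leaving out PBS 1, CTX100 5 or CTX140 1 left 1 above and 0 below, and leaving out CTX140 4 left 2 above and 1 below, while without PBS 2 there were 7 above and 1 below and without CTX140 5 10 above and 3 below.

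**Figure D2:**
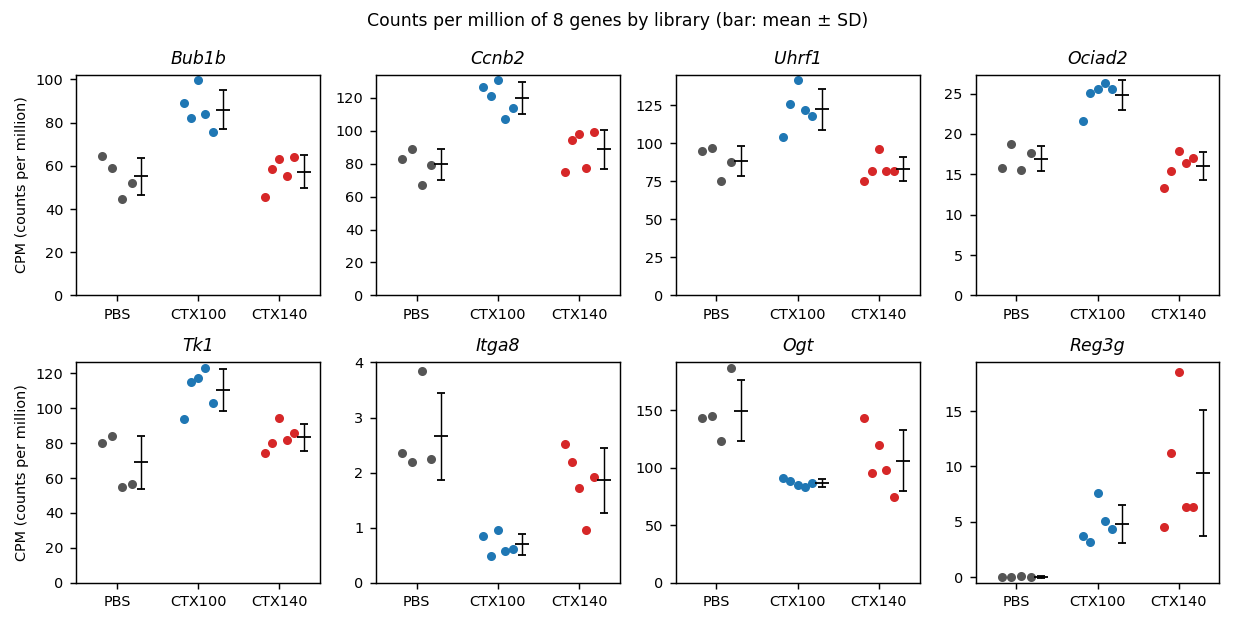
CPM (linear axis) of 8 genes in the 4 PBS, 5 CTX100 and 5 CTX140 libraries, 1 point per library, with the group mean and SD as a bar beside the points. Bub1b, Ccnb2, Uhrf1 and Ociad2 have all CTX100 points above the others, Itga8 has them below, and in Reg3g the CTX100 points lie above PBS and overlap CTX140.

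The mitosis list had a median contrast difference of 0.45, beside -0.01 over all genes tested, and 29 of its 30 tested members had a fitted CTX100 level above both groups (21.0% over all genes). At an unadjusted p under 0.05, 26 of 30 were higher (4.92% over all genes) and 0 lower, and 18 of 30 were past both groups (0.938% over all genes in that direction). The list's median was 0.46 against PBS and 0.38 against CTX140, comparisons that share the CTX100 libraries. Its level, the mean log2 CPM over its members, was 6.17, 6.28, 5.93 and 6.21 in PBS, 6.63, 6.58, 6.76, 6.52 and 6.54 in CTX100, and 5.86, 6.12, 6.29, 6.15 and 6.54 in CTX140. CTX140 5 reached the level of the lowest CTX100 libraries, so the groups overlapped through that library, and the other 8 lay below.

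Against PBS, edgeR called 7 of the 30 mitosis genes higher (1.20% of genes tested), and against CTX140 it called 3 higher (0.475%). At an unadjusted p under 0.05, 22 and 24 of the 30 were higher in these comparisons (9.37% and 9.27% over all genes) and 0 lower (8.52% and 13.1%). Both counts were sensitive to leaving out single libraries. The first was 0 without PBS 3, PBS 4, CTX100 2 or CTX100 3, 1 without CTX100 1, CTX100 4 or CTX100 5, 11 without CTX140 1 and 13 without CTX140 5. The second was 0 without CTX100 1, 2, 3 or 4 or CTX140 1, 2 or 3, and 14 without CTX140 5. The share at an unadjusted p under 0.05 in the contrast moved less, from 22 of 30 without CTX100 3 to 28. DESeq2 called 9 of the 30 in the contrast (0.267% of genes tested were called higher by it).

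Ccnb2 encodes cyclin B2, a partner of Cdk1 at mitotic entry (ENSMUSG00000032218, chromosome 9, 70407692 to 70421547). Its values were 83.0, 88.8, 66.9 and 79.3 CPM in PBS, 127, 121, 131, 107 and 114 CPM in CTX100, and 75.0, 94.4, 98.0, 77.2 and 99.1 CPM in CTX140. The groups did not overlap between CTX100 and the rest. The rule took Ccnb2 for a low p in these same libraries, so its order of groups follows from that choice. Ccnb2 rose by 0.59 ± 0.12 against PBS (edgeR adjusted p = 0.0246), and its difference from CTX140, 0.43 ± 0.11, missed the threshold (0.0558).

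Top2a, the topoisomerase that untangles sister DNA before division, had the most counts of the list (ENSMUSG00000020914, chromosome 11, 98992943 to 99024189). It was at 413, 419, 395 and 483 CPM in PBS, at 638, 620, 695, 595 and 548 CPM in CTX100, and at 351, 413, 507, 456 and 595 CPM in CTX140. CTX100 lay above PBS throughout, while CTX140 5 reached into its range. Its contrast difference was 0.47 ± 0.11 (edgeR adjusted p = 0.234).

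Foxm1, the transcription factor that drives late cell cycle genes, and Ckap2, a spindle protein, are outside the list. The rule took both for a low p above both groups, so their order of groups follows from that choice. Foxm1 (ENSMUSG00000001517, chromosome 6, 128362967 to 128376146) was at 60.8, 53.1, 38.6 and 63.2 CPM in PBS, at 90.3, 89.7, 88.3, 74.6 and 69.9 CPM in CTX100, and at 46.6, 50.1, 68.5, 59.3 and 64.1 CPM in CTX140, a contrast difference of 0.57 ± 0.12 (edgeR adjusted p = 0.234). Ckap2 (ENSMUSG00000037725, chromosome 8, 22168160 to 22185819) was at 32.0 to 45.6 CPM in PBS, 52.0 to 56.5 CPM in CTX100 and 29.4 to 45.4 CPM in CTX140, a difference of 0.53 ± 0.11 (0.234). In both genes all CTX100 libraries were above the 9 others. Foxm1 overlaps Tex52 and Gm44596 on its own strand.

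The list's contrast differences ran from 0.12 to 0.62, and 26 of 30 members were higher at an unadjusted p under 0.05 (4.92% over all genes). Mki67, the proliferation marker Ki-67, lay low in that range without being its lowest, and was picked out after its values were seen. It was at 190, 296, 256 and 342 CPM in PBS, at 254, 253, 286, 302 and 255 CPM in CTX100, and at 188, 156, 194, 219 and 231 CPM in CTX140. CTX100 lay inside the PBS range and above CTX140, and the contrast difference was 0.22 ± 0.13 (edgeR adjusted p = 0.595).

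**Figure D3:**
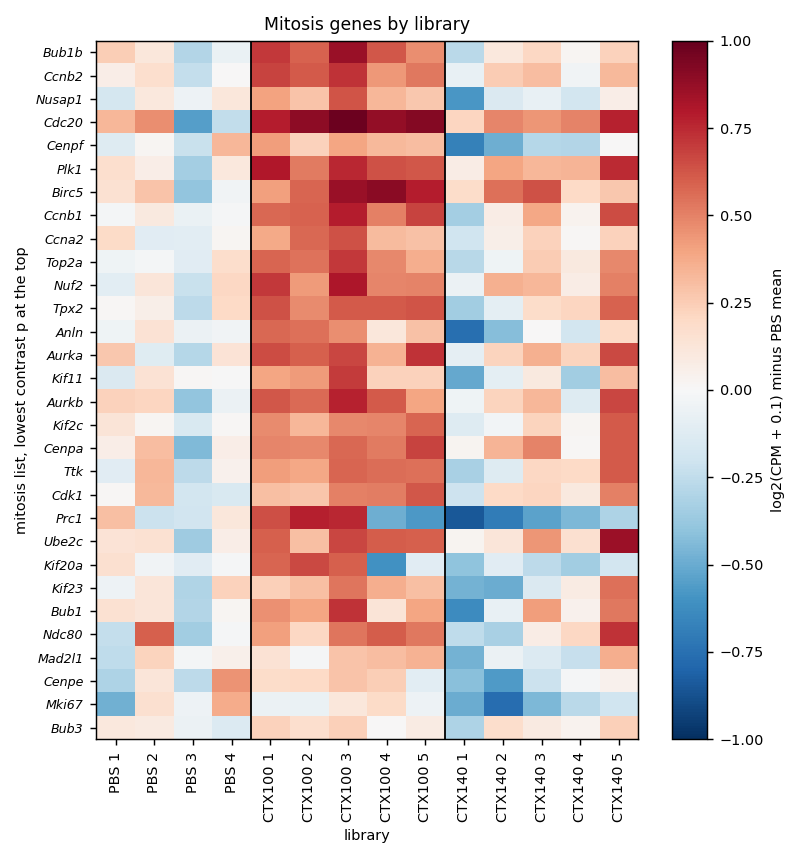
Each row is 1 of the 30 mitosis genes, ordered by contrast p, and each column a library; colour gives log2(CPM + 0.1) minus the PBS mean of that gene, from -1 (blue) to 1 (red). The 5 CTX100 columns are red in most rows, Prc1 and Kif20a are blue in CTX100 4, and CTX140 5 is the reddest column outside CTX100.

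CTX140 1, with the lowest mitosis level (5.86), was also highest in the T cell list (6.11) and in the mitochondrial share (9.81% of counts), and CTX140 5, with the highest level outside CTX100, was highest in the red blood cell list (4.74). Their part in the mitosis values was not tested. With PBS 1 and CTX140 1, the libraries richest in B and plasma cell transcripts, both left out, the list's median was 0.41 with 24 of 30 at an unadjusted p under 0.05.

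The promoters of 4 mitosis members are shown, those with the lowest contrast p among members with a matched promoter, with 1 chromosome left out. They run from 250 bases before to 50 after the RefSeq start site, on GRCm38.p6. Matches on either strand to CCAAT, to the CHR string TTTGAA or to the E2F-type string TTTNNCGC are in capitals. Mitosis promoters often hold CCAAT and TTTGAA, so their matches bear on the list and not on the dose. A match is a run of letters in this window and was not tested for binding. Bub1b lies at chr2:118597961-118598260 on the plus strand, Ccnb2 at chr9:70421505-70421804 on the minus strand, Nusap1 at chr2:119618048-119618347 on the plus strand and Cdc20 at chr4:118437294-118437593 on the minus strand, each printed 5′ to 3′ along its gene.
Bub1b: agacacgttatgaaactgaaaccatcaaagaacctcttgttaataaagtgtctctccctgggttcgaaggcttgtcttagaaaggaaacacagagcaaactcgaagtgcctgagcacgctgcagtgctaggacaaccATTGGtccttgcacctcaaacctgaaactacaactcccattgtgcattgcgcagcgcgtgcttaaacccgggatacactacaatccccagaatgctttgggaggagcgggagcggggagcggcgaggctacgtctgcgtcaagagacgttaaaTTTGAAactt
Ccnb2: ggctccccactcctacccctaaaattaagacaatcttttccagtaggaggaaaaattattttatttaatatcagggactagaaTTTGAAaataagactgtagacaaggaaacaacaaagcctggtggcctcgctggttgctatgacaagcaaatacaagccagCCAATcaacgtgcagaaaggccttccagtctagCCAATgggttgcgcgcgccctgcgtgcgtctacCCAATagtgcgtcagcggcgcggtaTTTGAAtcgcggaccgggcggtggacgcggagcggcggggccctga
Nusap1: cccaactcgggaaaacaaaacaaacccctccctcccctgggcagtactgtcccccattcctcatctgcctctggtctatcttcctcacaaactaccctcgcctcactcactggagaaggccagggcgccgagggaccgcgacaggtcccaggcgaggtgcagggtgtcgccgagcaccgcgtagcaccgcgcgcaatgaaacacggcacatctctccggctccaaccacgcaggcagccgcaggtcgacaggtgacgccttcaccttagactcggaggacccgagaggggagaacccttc
Cdc20: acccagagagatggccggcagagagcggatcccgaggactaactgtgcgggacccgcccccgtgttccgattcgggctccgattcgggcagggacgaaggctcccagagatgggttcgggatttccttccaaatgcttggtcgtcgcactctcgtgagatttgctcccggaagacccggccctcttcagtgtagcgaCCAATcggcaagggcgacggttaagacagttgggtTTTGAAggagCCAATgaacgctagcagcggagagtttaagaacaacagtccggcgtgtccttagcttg
The Ccnb2 promoter had 3 CCAAT matches, the one nearest the start 21 bases before it, and a TTTGAA 4 bases after the start. In Cdc20 a TTTGAA began 18 bases before the start, between 2 CCAAT matches at 53 and 8 bases before it. Bub1b had 1 of each, the CCAAT match read on the opposite strand, and the Nusap1 window had none of the 3 motifs.

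A promoter was matched by symbol, chromosome and strand for 26 of the 30 mitosis genes and for 10990 of the genes tested. TTTGAA was found in 19 of the 26 (73.1%), beside 12.3% of all these promoters, and CCAAT in 19 of 26 (73.1%), beside 38.6%. TTTNNCGC was found in 2 of 26 (7.69%), beside 8.3%. In the DNA replication list it was found in 13 of 31 promoters (41.9%), with CCAAT in 20 (64.5%) and TTTGAA in 4 (12.9%). The 3 strings can share bases where they meet, and each was counted on its own.

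DNA replication genes showed a smaller difference of the same sign. Of 39 tested, 33 had a fitted CTX100 level above both groups (21.0% over all genes), 24 were higher at an unadjusted p under 0.05 (4.92% over all genes) and 0 lower, and the median contrast difference was 0.29. That count was 13 without CTX100 3. The median was 0.41 against PBS and 0.20 against CTX140, and 27 and 8 of 39 were higher at an unadjusted p under 0.05 (9.37% and 9.27% over all genes). edgeR called 5 of 39 higher against PBS (1.20% over all genes) and 0 against CTX140 (0.475%). The 5 became 0 without PBS 3, PBS 4, CTX100 3, CTX100 4 or CTX100 5, 1 without CTX100 2, 2 without CTX100 1, 3 without CTX140 3 or CTX140 4, 8 without CTX140 1 and 13 without PBS 2, and the 0 became 2 without CTX140 5. In the contrast itself DESeq2 called 2 of 39 (0.267% over all genes called higher). The list's level ran from 5.09 to 5.51 in PBS, from 5.61 to 5.80 in CTX100 and from 5.27 to 5.70 in CTX140, so CTX140 5 again reached into the CTX100 range.

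Tk1, thymidine kinase of the salvage pathway, had the lowest p of the list (ENSMUSG00000025574, chromosome 11, 117815526 to 117826092). It was at 79.9, 84.3, 55.1 and 56.5 CPM in PBS, at 93.9, 115, 117, 123 and 103 CPM in CTX100, and at 74.1, 80.3, 94.6, 81.7 and 86.0 CPM in CTX140. CTX140 3 was above CTX100 1, and no PBS library was. Tk1 rose by 0.68 ± 0.14 against PBS (edgeR adjusted p = 0.0270), with a difference of 0.41 ± 0.13 from CTX140 (0.0928), and it overlaps Afmid on the opposite strand. Pcna, the sliding clamp of the replication fork and the member with the most counts, did not separate the groups. It was at 255 to 429 CPM in PBS, 330 to 403 CPM in CTX100 and 259 to 438 CPM in CTX140, with a contrast difference of 0.12 ± 0.13.

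Repair of crosslinks and recombination, the pathways that mend cyclophosphamide damage, had 23 of 27 tested genes with a fitted CTX100 level above both groups (21.0% over all genes) and 2 below both (26.1%), and a median contrast difference of 0.26. At an unadjusted p under 0.05, 9 of 27 were higher (4.92% over all genes) and 0 lower. Ercc1, a subunit of the nuclease that cuts beside crosslinks, was at 77.3 to 107 CPM in PBS, 91.7 to 114 CPM in CTX100 and 62.7 to 78.7 CPM in CTX140. Ercc1 was higher than in CTX140 by 0.51 ± 0.11 (edgeR adjusted p = 0.0384), and CTX100 and PBS overlapped. Ercc1 overlaps Cd3eap on the opposite strand.

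**Figure D4:**
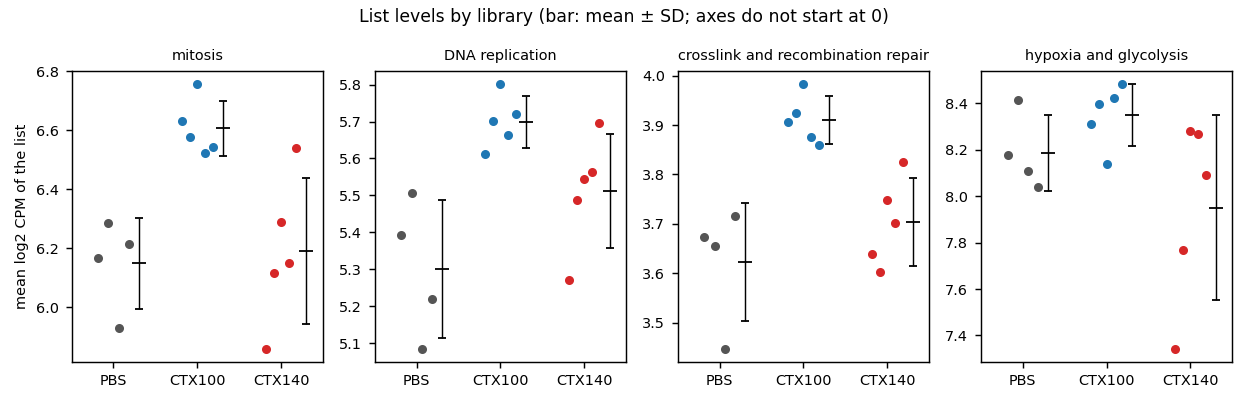
Level of 4 gene lists (mean log2 CPM of the tested members; axes do not start at 0) in each library, with group mean and SD as bars. In mitosis and DNA replication the CTX100 points lie above all but CTX140 5, in repair they lie above all others, and in hypoxia and glycolysis they overlap PBS.

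Of the 25 hypoxia and glycolysis genes tested, edgeR called 0 in the contrast, 0 against PBS and 0 against CTX140, with 1 and 10 of 25 higher in the pairwise comparisons at an unadjusted p under 0.05 (9.37% and 9.27% over all genes). In the contrast, 22 had a fitted CTX100 level above both groups (21.0% over all genes), 0 were past both groups at an unadjusted p under 0.05 (0.938%), 6 were higher at an unadjusted p under 0.05 (4.92% over all genes; from 2 to 9 with 1 library left out) and 0 lower, and the median was 0.22 in the contrast, 0.10 against PBS and 0.33 against CTX140. Ndrg1, a hypoxia-induced gene (ENSMUSG00000005125, chromosome 15, 66929318 to 66969640), was at 691, 711, 604 and 732 CPM in PBS, at 827, 745, 738, 848 and 865 CPM in CTX100, and at 313, 490, 672, 641 and 525 CPM in CTX140. All CTX100 libraries were above the others, though PBS 4 was within a few CPM of CTX100 3. The contrast difference was 0.42 ± 0.14 (edgeR adjusted p = 0.408). Pkm, pyruvate kinase of glycolysis, was at 2738 to 3195 CPM in PBS, 3064 to 3444 CPM in CTX100 and 1880 to 2991 CPM in CTX140, a difference of 0.22 ± 0.11. The lowest hypoxia level, 7.34, was that of CTX140 1, the library highest in T cell transcripts, and the part of that in the values was not tested.

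Circadian clock genes had differences of both signs. Of 17 tested, 2 were higher and 5 lower at an unadjusted p under 0.05 (4.92 and 4.16% over all genes), and the median contrast difference was -0.22. Without CTX100 3 the lower count was 3. Arntl, the activator Bmal1 (ENSMUSG00000055116, chromosome 7, 113207465 to 113314126), was at 12.7, 12.4, 10.3 and 9.83 CPM in PBS, at 19.4, 14.9, 14.6, 13.0 and 17.1 CPM in CTX100, and at 11.0, 10.6, 9.94, 13.3 and 12.2 CPM in CTX140. CTX140 4 was above CTX100 4, and the difference was 0.48 ± 0.12 (edgeR adjusted p = 0.279). The 5 lower genes, named after their values were seen, were the clock outputs Tef and Dbp (-0.51 ± 0.15 and -0.59 ± 0.25), the repressors Per3 and Per2 (-0.63 ± 0.20 and -0.66 ± 0.26), and Bhlhe41, a repressor as well (-0.48). Bhlhe40, the near relative of Bhlhe41, was higher by 0.27 ± 0.12. The part of the hour at which tumours were taken was not tested, that hour being not given in the sources used here.

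The rule took genes lowest at 100 mg/kg for a low p in these same libraries, so their order of groups follows from that choice. Among them, 1 besides Itga8 passed a pairwise comparison. That was Ogt, which encodes the enzyme that adds O-GlcNAc to nuclear proteins (ENSMUSG00000034160, chromosome X, 101640060 to 101684351). It was at 143, 145, 123 and 187 CPM in PBS, at 91.3, 88.4, 84.6, 82.9 and 86.7 CPM in CTX100, and at 143, 95.2, 120, 97.7 and 74.5 CPM in CTX140. CTX100 lay below PBS throughout, and CTX140 5 was lower still. Ogt fell by 0.79 ± 0.16 against PBS (edgeR adjusted p = 0.0249), with a difference of -0.29 ± 0.15 from CTX140 (0.270).

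Xcr1, the chemokine receptor of cross-presenting dendritic cells (ENSMUSG00000060509, chromosome 9, 123852315 to 123862029), was read with few counts. It was at 2.11, 2.39, 1.19 and 2.14 CPM in PBS, at 1.21, 0.418, 0.701, 0.325 and 0.866 CPM in CTX100, and at 2.10, 1.66, 0.920, 2.25 and 1.98 CPM in CTX140. CTX100 1 was above the lowest library of each other group, and the other 4 CTX100 libraries were below all 9. The contrast difference was -1.40 ± 0.34 (edgeR adjusted p = 0.242). P2rx7, an ATP-gated ion channel of immune cells (ENSMUSG00000029468, chromosome 5, 122643911 to 122691432), was at 15.4 to 23.3 CPM in PBS, 11.6 to 17.3 CPM in CTX100 and 17.4 to 21.9 CPM in CTX140, a difference of -0.54 ± 0.13 (0.242). Its CTX100 range overlapped that of PBS and lay just below that of CTX140.

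The other genes named for a low at 100 mg/kg had no edgeR adjusted p under 0.05 in the contrast or in either pairwise comparison. Fam129c was at 3.49 to 5.93 CPM in PBS, 1.48 to 2.86 CPM in CTX100 and 2.85 to 9.11 CPM in CTX140 (difference -1.23 ± 0.30). The zinc finger gene Zfp251 was at 10.7 to 15.0, 7.36 to 9.52 and 10.8 to 16.1 CPM in these groups (-0.55 ± 0.14), with all CTX100 libraries below the others. Inmt, an N-methyltransferase of indoleamines, was at 1.54 to 11.7, 1.17 to 1.67 and 1.02 to 7.43 CPM (-1.85 ± 0.49). Ints6l was at 8.45 to 14.1, 5.46 to 7.86 and 7.23 to 20.3 CPM (-0.83 ± 0.22), and Rsrp1 at 193 to 421, 128 to 194 and 186 to 356 CPM (-0.81 ± 0.21). In Fam129c, Inmt, Ints6l and Rsrp1 the CTX100 values overlapped with at least 1 other group. The Fam129c gene overlaps Pgls on the same strand.

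On the high side the rule also named Ubald2, a UBA-like domain gene, and Erfe, the erythroid hormone erythroferrone. Ubald2 was at 106 to 119 CPM in PBS, 128 to 160 CPM in CTX100 and 94.7 to 121 CPM in CTX140, a contrast difference of 0.40 ± 0.08 (edgeR adjusted p = 0.234). It was higher than in CTX140 by 0.41 (edgeR adjusted p = 0.0463), and against PBS the adjusted p was 0.0613. Erfe, which overlaps Ilkap on the opposite strand, was at 5.87 to 10.3 CPM in PBS, 10.7 to 18.6 CPM in CTX100 and 6.41 to 10.7 CPM in CTX140, a difference of 0.75 ± 0.17 (0.234).

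Markers of plasma cells, red blood cells, skeletal muscle, B cells and T cells gave the list medians farthest from 0 in the contrast, and each moved when 1 or 2 libraries were left out. Red blood cell genes had a median of -2.59, with 6 of 7 tested genes below both groups (26.1% over all genes) and 5 of 7 lower at an unadjusted p under 0.05 (4.16% over all genes). The list's level was 3.09, 3.40, 2.16 and 2.92 in PBS, -0.47, -0.15, 1.47, 1.48 and 0.48 in CTX100, and 0.34, 0.05, 0.11, 1.85 and 4.74 in CTX140. CTX100 was below PBS throughout and overlapped 3 of the 5 CTX140 libraries. Without CTX140 5 the median was -1.40 and 1 of 7 genes lay below both groups, and with 1 library left out the number lower at that p ran from 1 (without CTX100 1) to 6. Hbb-bs, an adult beta-globin gene, was at 36.8 to 93.4 CPM in PBS, 0.664 to 17.4 CPM in CTX100 and 1.72 to 125 CPM in CTX140, a contrast difference of -2.62 ± 1.11. Alas2, the heme enzyme of red cell precursors, was at 0.559 to 2.60, 0.0603 to 0.501 and 0.0594 to 9.10 CPM in these groups.

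Plasma cell genes had a median of -2.90, with 5 of 6 lower at an unadjusted p under 0.05 (4.16% over all genes), and a level of 5.92 in PBS 1 and 5.66 in CTX140 1 against 0.47 to 3.49 in the other 12 libraries. With both of those libraries left out the median was -0.61 over 5 genes, of which 1 was lower at that p. With single libraries left out that number ran from 2 to 5. Jchain, the joining chain of secreted antibody, was at 39.0, 1.91, 1.19 and 1.15 CPM in PBS, at 0.724, 1.14, 0.751, 0.130 and 0.742 CPM in CTX100, and at 49.1, 8.97, 9.02, 0.410 and 3.75 CPM in CTX140. CTX100 lay below PBS throughout, CTX100 2 by a narrow gap, and CTX140 4 was within its range. Sdc1, which carcinoma cells also express, differed by 0.07 ± 0.11.

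B cell genes had a median of -1.25 that became 0.39 without the same 2 libraries, and T cell genes one of -0.97 that became -0.18. Pax5, the B cell factor, was at 8.26 CPM in PBS 1 and 15.9 CPM in CTX140 1, and at 0 to 1.77 CPM in the other 12 libraries. Zap70, a T cell receptor kinase, was at 2.66 to 8.08 CPM in PBS, 2.27 to 5.13 CPM in CTX100 and 4.07 to 40.6 CPM in CTX140. Macrophage genes had a median of -0.57, or -0.26 without CTX140 2, which held 8177 CPM of the lipid carrier gene Apoe against 648 to 3862 CPM in the other libraries. In these 3 lists 0 of 5, 1 of 17 and 1 of 15 genes were lower at an unadjusted p under 0.05 (4.16% over all genes) and 0 were higher, and with single libraries left out the last 2 counts ran from 0 to 6 and from 0 to 5.

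Skeletal muscle genes lay the other way, with a median of 1.37 and 5 of 7 tested genes higher at an unadjusted p under 0.05 (4.92% over all genes), and rested on 1 library. Acta1, skeletal muscle actin, was at 104 CPM in CTX100 3, at 0.302 to 4.35 CPM in the other CTX100 libraries, at 0.0699 to 3.35 CPM in PBS and at 0 to 1.39 CPM in CTX140. Without CTX100 3 the list's median was 0.32 and 1 of 7 genes was higher at that p. CTX100 3 also had the highest mitosis level of all libraries (6.76), and without it the mitosis median was 0.39.

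**Figure D5:**
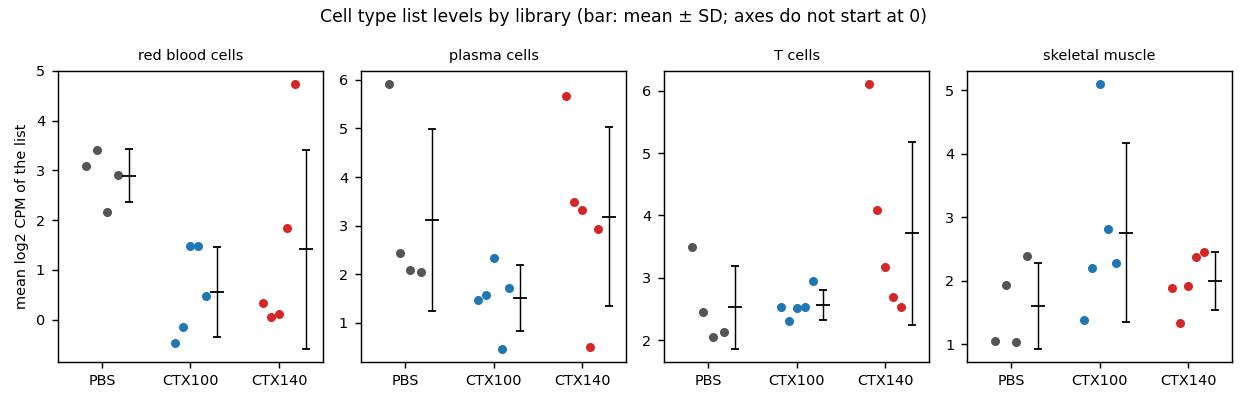
Level of 4 cell type lists (mean log2 CPM of the tested members; axes do not start at 0) in each library, with group mean and SD as bars. PBS 1 and CTX140 1 stand high in plasma cells, CTX140 1 in T cells, CTX140 5 in red blood cells and CTX100 3 in skeletal muscle.

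Other programmes had their CTX100 level between those of PBS and CTX140. All 25 type I interferon genes tested had a fitted CTX100 level between PBS and CTX140 (52.9% over all genes), with medians of 0.84 against PBS and -0.54 against CTX140, and 2 of 25 were higher in the contrast at an unadjusted p under 0.05 (4.92% over all genes; from 1 to 7 with 1 library left out). Oasl1, an antiviral effector (ENSMUSG00000041827, chromosome 5, 114923240 to 114937915), was at 34.8, 23.3, 16.8 and 16.7 CPM in PBS, at 78.5, 78.2, 65.5, 55.9 and 80.3 CPM in CTX100, and at 62.8, 63.9, 93.3, 74.9 and 153 CPM in CTX140. It rose by 1.65 ± 0.28 against PBS (edgeR adjusted p = 0.0172), and the doses overlapped. Bst2, a membrane antiviral protein, was at 365 to 432 CPM in PBS, 392 to 567 CPM in CTX100 and 442 to 748 CPM in CTX140.

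Reg3g, an antimicrobial lectin, had the lowest p of all genes in the contrast without being highest at 100 mg/kg (ENSMUSG00000030017, chromosome 6, 78466269 to 78468872). It was at 0, 0, 0.140 and 0 CPM in PBS, at 3.74, 3.17, 7.56, 5.06 and 4.39 CPM in CTX100, and at 4.49, 11.2, 18.5, 6.35 and 6.37 CPM in CTX140. CTX100 was above PBS throughout and overlapped CTX140, so its contrast difference of 2.98 ± 0.48 (edgeR adjusted p = 0.126) came with a level between the groups. Without CTX140 3 that adjusted p was 0.0263. Reads may be shared with other genes of the Reg family.

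Targets of p53 had 19 of 25 members between the groups (52.9% over all genes) and a median of 0.01. Of the rest, 3 were above both (21.0% over all genes) and 3 below (26.1%). Psrc1, a spindle protein under p53, was 1 of the 3 with a fitted level above both. It was at 6.81 to 8.40 CPM in PBS, 10.9 to 14.5 CPM in CTX100 and 9.53 to 13.6 CPM in CTX140. It rose by 0.73 ± 0.15 against PBS (edgeR adjusted p = 0.0268) and differed from CTX140 by 0.08 ± 0.14. The apoptosis gene Bax differed from the midpoint by 0.01 ± 0.13.

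Cholesterol synthesis genes lay between the groups in 20 of 22 (52.9% over all genes), with a median of -0.02 in the contrast, -0.51 against PBS and 0.45 against CTX140. Srebf2, the transcription factor of the pathway, was at 88.2 to 137 CPM in PBS, 62.8 to 95.8 CPM in CTX100 and 42.4 to 62.4 CPM in CTX140, and was higher than in CTX140 by 0.65 ± 0.15 (edgeR adjusted p = 0.0420). Dhcr7, an enzyme late in the pathway, was at 16.8 to 27.4, 12.9 to 17.1 and 11.5 to 18.2 CPM in these groups.

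Fibroblast and adipocyte genes lay between the groups in 14 of 15 and 10 of 11 (52.9% over all genes), with contrast medians of -0.14 and -0.12. Fap, a protease of activated fibroblasts, was at 2.52 to 4.64 CPM in PBS, 2.75 to 4.70 CPM in CTX100 and 5.94 to 12.8 CPM in CTX140. It was lower than in CTX140 by a log2 difference of -1.30 ± 0.24 (edgeR adjusted p = 0.0262), and CTX100 overlapped PBS. Gsn, an actin-severing protein, was at 261 to 344, 314 to 385 and 300 to 466 CPM in these groups, a contrast difference of 0.02 ± 0.11. The lipases of stored fat, Pnpla2 and Lipe, had contrast differences of -0.12 ± 0.11 and -0.32 ± 0.22. Lipe was the 1 adipocyte gene with a fitted CTX100 level below both groups.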

How the data were processed

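RNA-seq counts and FPKM values of 14 tumour libraries were used, with groups from the sample labels. In the deposited count table each Ensembl gene has whole-number counts of reads, left unnormalised by the authors; a second deposited table holds FPKM values, which equalled count over gene length and 1 constant per library (largest relative deviation 5.2e-15). Per the submitters' processing notes the build was mm10 and DESeq2 was used, with no role given; which aligner, which counter and which strand setting made the counts is not given in the sources used here. Coordinates are those of the deposited table, whose 54532 genes include 54409 with a GENCODE M21 identifier.

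Tests of counts ran in R 4.3.3 and edgeR 4.0.16, with TMM factors, filterByExpr by group, 1 robust quasi-likelihood fit of the 14 libraries with a mean per group, two-sided, Benjamini-Hochberg adjustment over the 15360 genes tested, and a call at an adjusted p under 0.05. CPM are counts for every 1000000 of a library total scaled by its TMM factor, list levels are means of log2 CPM (prior count 2), and ± is the SE of a difference. Totals were 14423875 to 19282726 counts per library, and the precision depends on the spread between libraries as well as on counts. Alternatives used DESeq2 1.42.0, limma 3.58.1 on log2 FPKM, other scaling, filters and left-out libraries. The tests were also tried on simulated counts, drawn independently for each gene and with no outlying library. That trial is not used as evidence for any result here. Promoters are from RefSeq (GRCm38.p6).

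The contrast, the 49 gene lists (875 symbols, 2 of them absent from the table) and the genes were chosen with earlier results of these data known. The 16 lists whose results are given were picked from these after their values were seen. No gene being called, the rule took protein-coding genes whose mean CPM was 1 or more: the 5 with the lowest contrast p in each direction, the 8 with the lowest p beyond both groups in each direction, and, for a list described, the member with the highest mean CPM and the one with the lowest p. Other genes are said to be chosen after their values were seen, or stand as motif examples. A few that the rule took have no values printed and are not reported here.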

Additional observations from a re-analysis of the deposited data

Results flagged for a closer look

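Each group of 4 or 5 libraries was examined for a library far from the rest of its group, by Dixon's ratio, in the 49 genes named by the rule and the 16 lists described. Of 195 groups so examined, 24 (12.3%) held such a library, where chance gives about 1 in 20; the genes share libraries and lists, so these are not independent.

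CTX140 1 stood high in Fam129c (9.11 CPM, against 2.85 to 4.17 in the rest of CTX140), Zfp251 (16.1 CPM), Ints6l (20.3 CPM), Jchain (49.1 CPM), Pax5 (15.9 CPM), Zap70 (40.6 CPM) and the B cell list (4.02 log2 CPM). PBS 1 stood high in Jchain (39.0 CPM), Pax5 (8.26 CPM), Zap70 (8.08 CPM), the plasma cell list (5.92 log2 CPM) and the B cell list (3.42 log2 CPM).

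CTX100 3 stood high in Acta1 (104 CPM, against 0.302 to 4.35), Alas2 (0.501 CPM), Pax5 (1.40 CPM) and the B cell list (1.83 log2 CPM), and CTX100 1 stood low in Ociad2 (21.5 CPM, against 25.0 to 26.3). CTX140 5 stood high in Hbb-bs (125 CPM, against 1.72 to 20.1) and Alas2 (9.10 CPM).

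Among the PBS libraries, PBS 3 stood high in Itga8 (3.84 CPM, against 2.19 to 2.35) and was the 1 PBS library with Reg3g above 0 (0.140 CPM). PBS 4 stood high in Zfp251 (15.0 CPM) and Acta1 (3.35 CPM), and PBS 2 in Bax (151 CPM, against 87.4 to 94.7).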

How the results depend on the processing

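Under most alternatives edgeR or limma called 0 genes in the contrast: other scaling factors, filters, a fit without robust estimation, a log2 difference of at least 0.5, log2(FPKM + 1) or (FPKM + 0.1), the mean over the 9 other libraries and a point weighted by dose. DESeq2 called 51, of which 49 had an edgeR fitted level beyond both groups (21.0% above and 26.1% below over all genes tested). Genes chosen by the contrast tend to lie there, and in the test of being past both groups DESeq2 called 0. Why the tools differed was not tested. With single libraries left out the count ran from 0 to 1, the 1 being Reg3g without CTX140 3. With the replicate number as a block 2 genes were called, Reg3g (adjusted p = 0.00833) and Apoa1 (lower, 0.00559), and 1 gene, Apoa1, beyond both groups (0.0195). Whether the numbers pair the samples was not settled: of 13 same-numbered pairs 6 had deviations correlated above 0.1 (range -0.19 to 0.43). Pairs with different numbers were not compared. The 1395 genes at an unadjusted p under 0.05 became 2217 with no filter, where more genes are tested, and 148 at a log2 difference of at least 0.5, and ran from 1003 to 1863 with single libraries left out. The genes beyond both groups stayed at 0 with each library left out. The difference in mitochondrial share stayed negative with each library left out. At an unadjusted p under 0.05 the genes higher were 756 of 1395 with TMM, 693 of 1390 with RLE and 665 of 1403 with upper quartile factors; no scaling moved the all-gene median by 0.1 log2.

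Many of the 49 genes taken by the rule were chosen for a low p in these same libraries. Of the 49, 21 passed the threshold with DESeq2 (0.332% of all genes tested), a share raised by that choice. In 5, none of them called, the difference changed sign under some alternative: Bax, Gsn and Sdc1 lay near 0, and Cd22 and Pax5 went from -0.76 and -2.61 to 0.20 and 0.43 without PBS 1 and CTX140 1, an alternative chosen after seeing the data, as were those on pairwise calls. Few counts limit Itga8, Xcr1, Alas2 and Reg3g: 60, 60, 18 and 415 counts over CTX100.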
